A study of Mus musculus with 4 samples.

Results

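The cytosolic ribosomal protein genes encode the proteins that, with the ribosomal RNAs, build the small and large subunits of the ribosome outside mitochondria. They were taken by gene symbol, as Rps, Rpl or Rplp followed by a number, from probe sets that carry 1 gene symbol, which leaves out the S6 kinases and pseudogenes with a -ps suffix. This gave 60 members among 19938 genes, 22 of the small subunit, 35 of the large subunit and 3 of the stalk. The rule used names only and no measured value, but it was set with earlier results of these data known. The brightest probe set by the mean over 4 arrays stands for each gene, as log2 signal.

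Fibroblasts cultured from mouse embryos (MEFs), a connective tissue cell type, were compared by genotype and by the salt content of the medium. The factor NFAT5 (TonEBP) is known for switching on osmoprotective genes when cells lose water to a salty medium. The 4 groups were NFAT5/TonEBP knockout MEFs in hypertonic medium, the same knockout MEFs in isotonic medium, wild-type MEFs in hypertonic medium and wild-type MEFs in isotonic medium, each kept for 20 hours without synchronisation, with NaCl added to 450 mosmol/kg for hypertonic medium. Each group is 1 array hybridised with a pool of 4 samples. Which part of the gene was deleted, how many embryos stand behind each genotype and the isotonic osmolality were not stated. With 1 array per group no test across samples is possible, so differences are given as sizes and counts, and "higher" and "lower" describe these arrays.

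The Nfat5 probe set read 8.24 on the knockout-labelled hypertonic array and 8.03 on the knockout-labelled isotonic array, against 8.19 on the wild-type hypertonic array and 7.74 on the wild-type isotonic array. It was not lower in the knockout-labelled cells, so the cells are called knockout-labelled. Of 10 fibroblast markers, 9 were above the dim limit on all 4 arrays and Dcn, the proteoglycan decorin, was below it on all 4. The dim limit of an array is its median signal over probe sets with 1 symbol, between 5.38 and 5.44. The mean log2 signal of the 10 fibroblast markers was 8.40 and 8.72 on the knockout-labelled hypertonic and isotonic arrays, and 9.68 and 9.39 on the wild-type hypertonic and isotonic arrays, and the part of this difference in the genotype differences below was not tested. All 4 endothelial markers (Pecam1, Cdh5, Kdr, Tek) and the leukocyte genes Ptprc, Adgre1 and Csf1r were below the limit on all 4 arrays. The macrophage marker Cd68 was just above it on 3 arrays. Among epithelial markers, Krt18 was above it on all 4 arrays and Cdh1 on both wild-type arrays. In such bulk samples fewer cells of a type and less RNA per cell cannot be told apart, and a change shared by all transcripts would not be seen.

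Ribosomal proteins are needed in matched amounts, and a subunit that lacks one of them is usually not completed. Their mRNAs begin with a C followed by a run of pyrimidines, the 5′ terminal oligopyrimidine (TOP) element, through which mTORC1 and the RNA-binding protein LARP1 adjust their translation and stability. In growing fibroblasts they are among the most abundant mRNAs, and hypertonic shock is known to lower translation.

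The start regions of 8 members are printed, 5 with long pyrimidine runs and 3 without, all of genes described below. Rps6 is the classic substrate of the S6 kinases. RefSeq promoter sequences (GRCm38.p6) were matched for 48 of the 60 members. Each window runs from 40 bases before to 20 bases after the annotated start, on the gene's own strand, and the longest run of C or T in its last 50 bases is in capitals.
Rps6 (chr4:86857348-86857407, minus strand): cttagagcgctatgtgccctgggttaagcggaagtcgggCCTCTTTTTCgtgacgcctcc
Rpl38 (chr11:114668540-114668599, plus strand): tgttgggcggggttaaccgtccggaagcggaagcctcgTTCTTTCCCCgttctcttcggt
Rpl14 (chr9:120571477-120571536, plus strand): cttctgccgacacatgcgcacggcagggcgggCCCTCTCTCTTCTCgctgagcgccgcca
Rps25 (chr9:44407674-44407733, plus strand): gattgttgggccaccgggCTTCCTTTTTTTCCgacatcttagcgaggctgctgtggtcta
Rps12 (chr10:23787190-23787249, minus strand): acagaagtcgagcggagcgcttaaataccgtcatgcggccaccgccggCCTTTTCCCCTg
Rpl22 (chr4:152324396-152324455, plus strand): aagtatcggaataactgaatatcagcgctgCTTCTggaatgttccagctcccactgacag
Rps28 (chr17:33824543-33824602, minus strand): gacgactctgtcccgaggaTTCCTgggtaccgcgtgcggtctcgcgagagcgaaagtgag
Rps3a1 (chr3:86142649-86142708, minus strand): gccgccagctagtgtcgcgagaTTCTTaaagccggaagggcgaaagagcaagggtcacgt
The first 5 hold runs of at least 10 pyrimidines, while the last 3 hold runs of 5. A run of at least 8 pyrimidines between 30 bases before and 20 bases after the start was present in 21 of 48 members (43.8%) and in 19.4% of 17491 protein-coding genes. A C at the annotated first base followed by 4 pyrimidines was present in 10 of 48 members (20.8%) and in 2.17% of protein-coding genes. Where a gene has several annotated starts the most upstream was used, and it can lie some bases or further from the start used in these cells. A short run in these windows therefore does not show that the mRNA lacks a TOP element. Over the 30 bases on either side of the start, on the given strand, CTTCC was found in 27.1% of members and 13.2% of protein-coding genes, CTTTT in 16.7% and 5.33%, CTTTCC in 10.4% and 2.71%, and CTCTTC in 8.33% and 2.85%. These letter strings can overlap one another. On either strand of the whole promoter sequence of the table, CCGGAAG, the core bound by ETS factors such as GABP, was in 35.4% of members and 11.9% of protein-coding genes. AAGATGG, a form of the YY1 site, was in 10.4% and 6.35%, and TGGAAA, the core of the NFAT5 site, was in 10.4% and 19.7%.

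Of the 60 members, 56 were above the dim limit on all 4 arrays and 4 were below it on all 4. The 4 are Rpl3l, Rpl10l, Rpl39l and Rps4l. The first 3 are paralogues known from muscle (Rpl3l) or testis (Rpl10l, Rpl39l), and RefSeq lists Rps4l as a transcribed pseudogene and the other 59 members as protein-coding. Rpl3l read 3.62 and 3.26 on the knockout-labelled hypertonic and isotonic arrays, and 3.63 and 3.46 on the wild-type hypertonic and isotonic arrays. Signals this low mix background with expression, so these 4 were left out of every count and median. The other genes listed as paralogues and with a probe set, Rpl7l1 and Rps27l, were measured. Rpl32l was not listed as a paralogue. It was measured with 1 probe set, at a mean signal of 6.76, and counted in the large subunit. RefSeq holds 88 symbols of this form, and 28 of them have no probe set of their own. Of these, 17, Rpl3 and Rpl11 among them, share probe sets with other symbols and were read only as part of a group given below, and the other 11 were not analysed here.

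The ribosomal protein genes read close to their isotonic signal in hypertonic medium, in both kinds of cells. The median difference, hypertonic minus isotonic, was -0.06 over the 56 members in knockout-labelled cells and -0.07 in wild-type cells, on the log2 scale, against -0.09 and -0.02 over all genes measured. None of the 56 was 1.5-fold higher or lower in knockout-labelled cells, where 4.28% of all genes passed this limit upward and 12.0% downward. None passed 1.5-fold in wild-type cells either, where 4.12% of all genes were higher and 3.3% lower. At the smaller limit of 1.2-fold, chosen after the values were seen, 5 members were lower and none higher in knockout-labelled cells, which is 8.93% of them against 48.7% of all genes in either direction. In wild-type cells 5 were again lower and none higher, against 32.5% of all genes. Bright genes move less on these arrays, and of 609 non-member genes at least as bright as the lower quartile of the members, 27.3% passed 1.2-fold in knockout-labelled cells and 20.2% in wild-type cells.

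Small-subunit members ran from -0.33 to 0.11 in knockout-labelled cells and from -0.54 to 0.08 in wild-type cells, with medians of -0.02 and -0.07. Large-subunit members ran from -0.40 to 0.19 and from -0.30 to 0.18 in the same cells, with a median of -0.07 in each. Below 0 were 37 of 56 members in knockout-labelled cells, 11 of the 21 small-subunit and 25 of the 32 large-subunit members among them. In wild-type cells 40 of 56 were below 0, with 16 of 21 in the small subunit and 22 of 32 in the large. That is 66.1% and 71.4% of members, against 60.1% and 53.9% of all genes and 62.2% and 54.7% of the bright non-members in the same cells, so the share in knockout-labelled cells was near the background. Both hypertonic arrays read below both isotonic arrays for 20 members (35.7%), against 19.8% of all genes and 23.0% of the bright non-members. Both read above for 3 members, Rplp0, Rps6 and Rpl23a (5.36%), against 10.4% of all genes. These counts depended on the scaling. With quantile normalization of the deposited values 12 members (21.4%) were below and 7 (12.5%) above, against 13.8% and 14.9% of all genes. Under the same normalization the median of the knockout-labelled response moved from -0.09 to 0.01 over all genes and from -0.06 to -0.0027 over members. The members' median was 0.0124 with cyclic loess and 0.0272 with centred differences, so its sign is not settled. With quantile normalization 664 genes passed 1.5-fold upward and 856 downward, against 440 and 1237 in the deposited values. Under all 8 scalings, limits and probe set choices compared, 21 members stayed below 0 in knockout-labelled cells and 37 in wild-type cells. Settings that change only the dim limit repeat the deposited differences, so they could not change a sign.

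**Figure D1:**
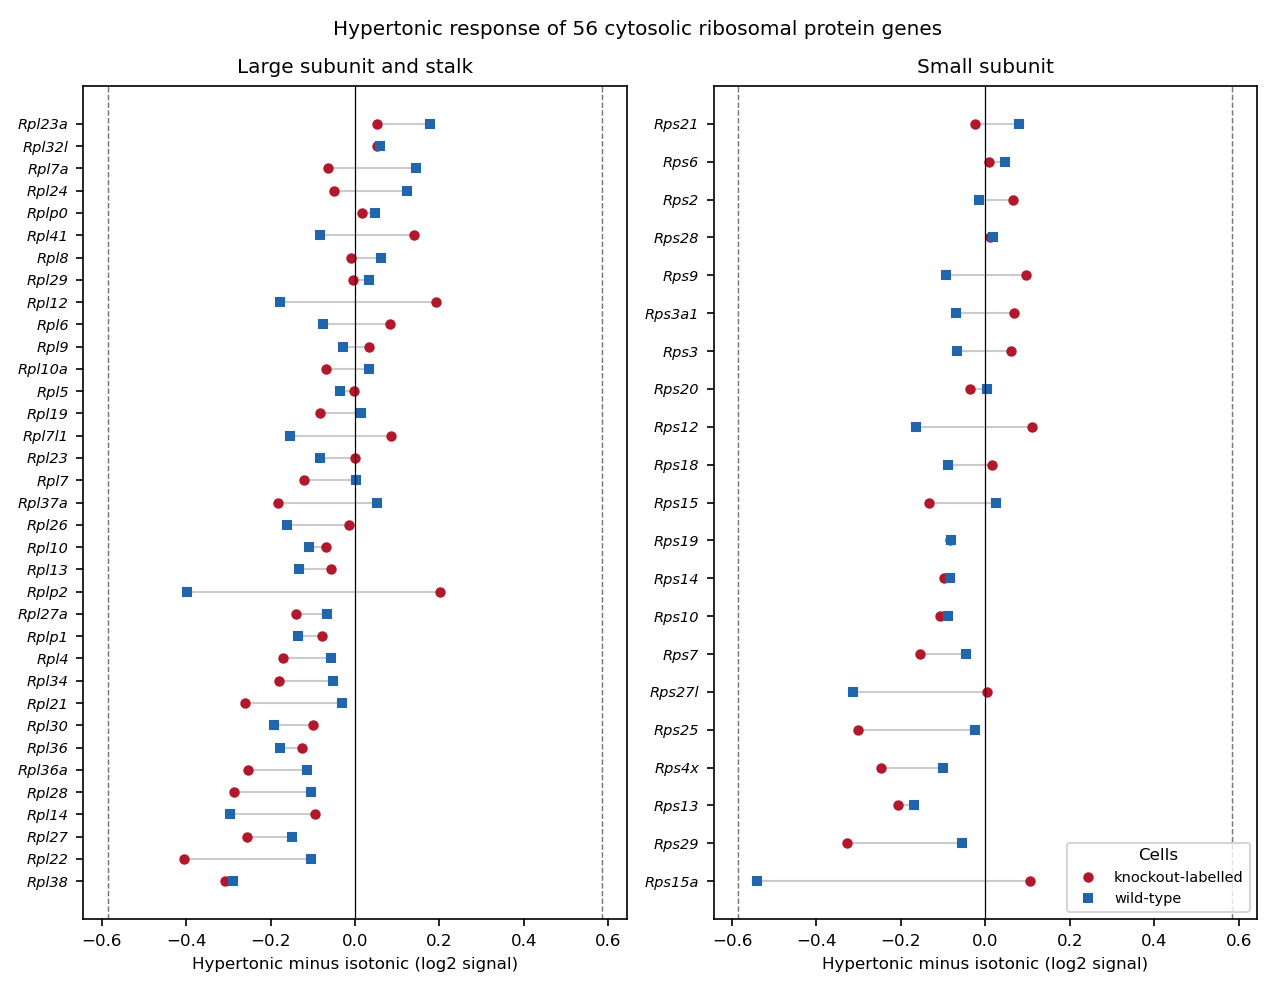
Hypertonic minus isotonic log2 signal of the 56 measured members, in knockout-labelled cells (circles) and wild-type cells (squares), 1 array per group, with dashed lines at 1.5-fold. No point lies beyond the dashed lines, Rpl38 is low in both kinds of cells, and Rps15a and Rplp2 have the longest connecting lines.

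Rpl38, a large-subunit protein that in mouse embryos is needed for translation of certain Hox mRNAs, was the member lowest on average over both responses. It read 10.66 and 10.96 on the knockout-labelled hypertonic and isotonic arrays, and 10.79 and 11.07 on the wild-type hypertonic and isotonic arrays. The differences were -0.31 and -0.29, and it was the one member past 1.2-fold downward in both kinds of cells. Of 10542 genes 659 passed in this way, and 25 of the 609 bright non-members. Its 4 probe sets gave between -0.36 and -0.30 in knockout-labelled cells and between -0.31 and -0.23 in wild-type cells. Rpl27 of the large subunit was also low in both, with -0.26 in knockout-labelled and -0.15 in wild-type cells. Rps13 of the small subunit gave -0.21 and -0.17.

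In knockout-labelled cells the lowest member was Rpl22, which in mice is needed for the survival of developing alpha-beta T cells. Its single probe set read 7.95 and 8.35 on the knockout-labelled hypertonic and isotonic arrays, and 8.01 and 8.11 on the wild-type hypertonic and isotonic arrays. The response was -0.40 in knockout-labelled and -0.10 in wild-type cells, and the knockout-labelled isotonic array stood above the other 3. Rps29, a zinc-binding protein of the small-subunit head, read 10.40 and 10.73 on the knockout-labelled hypertonic and isotonic arrays, and 10.68 and 10.73 on the wild-type hypertonic and isotonic arrays. Here the knockout-labelled hypertonic array alone was low, and the 4 probe sets gave between -0.35 and -0.28 in knockout-labelled cells and between -0.11 and -0.05 in wild-type cells. Rps25, known from yeast and human cells for a role in translation from certain viral internal ribosome entry sites, read 10.99 and 11.29 in hypertonic and isotonic knockout-labelled cells, and 11.10 and 11.12 in hypertonic and isotonic wild-type cells. Its 6 probe sets were all below 0 in both kinds of cells, from -0.35 to -0.29 in knockout-labelled and from -0.14 to -0.03 in wild-type cells. Rpl28 (-0.29) and Rpl21 (-0.26), both of the large subunit, came next.

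Wild-type cells had other members at the low end. Rps15a of the small subunit read 7.04 on the hypertonic and 7.58 on the isotonic wild-type array, a difference of -0.54. Rplp2, the acidic stalk protein that helps recruit the GTPases of translation, read 5.93 and 6.33, a difference of -0.40 not far above the dim limit. Rps27l, a paralogue of Rps27 and a p53 target gene in human and mouse cells, read 8.85 and 9.17, a difference of -0.31. Then followed Rpl14 (-0.30), Rpl38 (-0.29) and Rpl30 (-0.19), all of the large subunit. Of these, Rps15a, Rplp2, Rps27l, Rpl14 and Rpl30 each rest on a single probe set. At the high end Rpl23a, which lies at the exit of the peptide tunnel where the signal recognition particle docks, read 11.92 in hypertonic and 11.74 in isotonic wild-type cells. Its difference of 0.18 came with 11 distinct probe set readings between 0.07 and 0.18.

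The 2 responses share no array, so their likeness across members can be described. Over the 56 members Pearson's r was -0.07 and Spearman's rho 0.01, and 31 members had the same sign, 26 of them below 0 in both. All genes gave r = -0.02 and bright non-members 0.07. Genes are not independent replicates, and each response rests on 2 arrays. A member's response in one kind of cell thus showed little relation to its response in the other.

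Agreement between probe sets of a gene gives a measure of error within these arrays. Members carried 212 one-gene probe sets, and 37 members had at least 2 with different readings, 177 readings in all. The SD between readings of a member was 0.052 in the knockout-labelled response and 0.051 in the wild-type response, against an SD between those 37 members of 0.124 and 0.096. The sign was shared by all readings in 28 of 37 members in knockout-labelled cells and 26 in wild-type cells. For the genotype difference the SD within members was 0.043 in hypertonic and 0.070 in isotonic medium, against 0.143 and 0.155 between members. Differences near 0.3 are thus several times the SD between probe sets, but in some members the readings lay more than 0.3 apart. In the isotonic genotype difference those of Rps2 ran from -0.61 to -0.07 and those of Rps21 from 0.07 to 0.49. Members with 1 probe set, such as Rps15a, Rplp2, Rpl12 and Rpl22, have no such measure. None of this describes the spread between cultures. Probe sets of ribosomal protein genes may also read processed copies, of which these genes have many, so several readings of a gene are not fully independent.

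**Figure D2:**
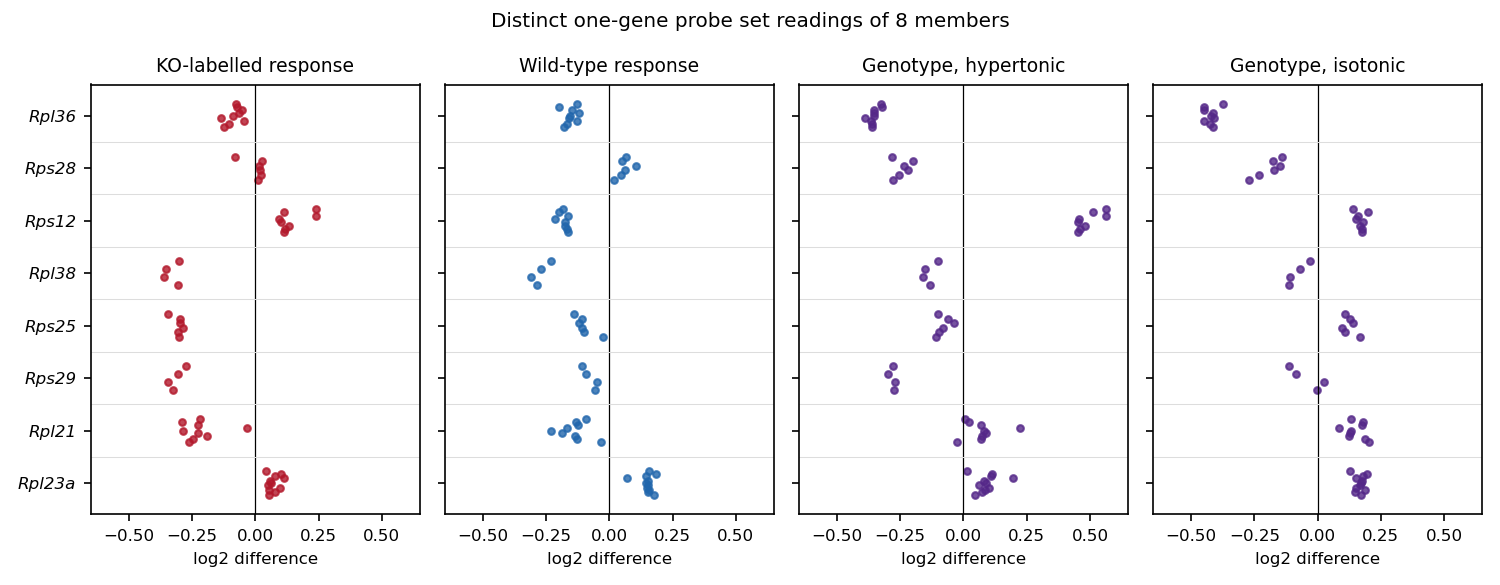
Log2 differences of each distinct one-gene probe set reading (points) of 8 members, in the knockout-labelled and wild-type responses (hypertonic minus isotonic) and in the genotype difference (knockout-labelled minus wild-type) in each medium. The 9 readings of Rpl36 lie below 0 in all panels, and those of Rps12 lie above 0 in all but the wild-type response.

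Genotype differences were larger in single members than in the group. The median difference, knockout-labelled minus wild-type, was -0.01 in hypertonic and 0.01 in isotonic medium over the 56 members, and -0.01 and 0.03 over all genes. No member passed 1.5-fold in hypertonic medium, where 8.72% of all genes were higher and 15.1% lower, nor in isotonic medium, where 4.92% were higher and 3.87% lower. Past 1.2-fold in hypertonic medium were 7 members, 4 higher and 3 lower, which is 12.5% of members against 56.5% of all genes and 40.6% of the bright non-members. In isotonic medium 6 were lower and none higher, 10.7% of members against 35.9% of all genes and 15.9% of the bright non-members.

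Rpl36, a large-subunit protein that bacterial ribosomes lack, was the lowest member in both media. It read 11.03 and 11.16 on the knockout-labelled hypertonic and isotonic arrays, and 11.39 and 11.57 on the wild-type hypertonic and isotonic arrays. Both knockout-labelled arrays lay below both wild-type arrays, and the differences were -0.36 in hypertonic and -0.41 in isotonic medium, or 1.33-fold lower in isotonic medium. All 9 probe sets were lower in knockout-labelled cells, from -0.39 to -0.32 in hypertonic and from -0.45 to -0.38 in isotonic medium. Over the 8 settings compared the isotonic difference ran from -0.47 to -0.41.

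Rps28, a small protein near the path by which mRNA leaves the small subunit, read 11.12 and 11.11 on the knockout-labelled hypertonic and isotonic arrays, and 11.40 and 11.38 on the wild-type hypertonic and isotonic arrays. The groups did not overlap and the medium made no visible difference, with genotype differences of -0.28 and -0.27. Its 6 distinct readings were all negative, from -0.28 to -0.20 in hypertonic and from -0.27 to -0.14 in isotonic medium. Rpl36 and Rps28 were the 2 members past 1.2-fold in the same direction in both media, both downward. Of 10542 genes, 924 passed downward in both media and 998 upward, and of the 609 bright non-members 18 and 31. Over the 8 settings compared the isotonic difference of Rps28 ran from -0.33 to -0.19, so its place past 1.2-fold depended on the setting. Rps9, at the mRNA entry of the small subunit, was also lower by its brighter probe set, with 10.65 and 10.55 on the knockout-labelled hypertonic and isotonic arrays, and 10.83 and 10.92 on the wild-type hypertonic and isotonic arrays. Its second probe set gave 0.05 in hypertonic and 0.12 in isotonic medium, so its direction is not settled.

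Rps12, a protein of the beak of the small subunit that in Drosophila takes part in cell competition, was higher in knockout-labelled cells. It read 12.17 and 12.06 on the knockout-labelled hypertonic and isotonic arrays, and 11.72 and 11.88 on the wild-type hypertonic and isotonic arrays. Its 14 probe sets gave 8 distinct readings, all positive, from 0.45 to 0.56 in hypertonic and from 0.14 to 0.20 in isotonic medium. Every reading was above 0 in the knockout-labelled response (0.09 to 0.24) and below 0 in the wild-type response (-0.21 to -0.16), so the genotype difference was wider in hypertonic medium by each of them. Rps3a1, on the mRNA exit side of the small subunit, followed the same order with a single probe set, reading 11.49 and 11.42 on the knockout-labelled hypertonic and isotonic arrays, and 11.13 and 11.20 on the wild-type hypertonic and isotonic arrays. Rpl29 of the large subunit, whose loss makes mice small, read 9.65 on both knockout-labelled arrays, and 9.43 and 9.40 on the wild-type hypertonic and isotonic arrays.

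Rps27l read 9.32 and 9.31 on the knockout-labelled hypertonic and isotonic arrays, and 8.85 and 9.17 on the wild-type hypertonic and isotonic arrays. Its genotype difference was the highest of the members in hypertonic medium, 0.47, and 0.15 in isotonic medium. Mdm2, another p53 target and the ligase that limits p53, read 9.19 and 8.44 on the knockout-labelled hypertonic and isotonic arrays. On the wild-type hypertonic and isotonic arrays Mdm2 read 7.52 and 7.61, a difference of 1.67 in hypertonic and 0.83 in isotonic medium. Trp53, the gene of p53, had no probe set of its own, and a part of p53 in either gene's difference was not tested.

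**Figure D3:**
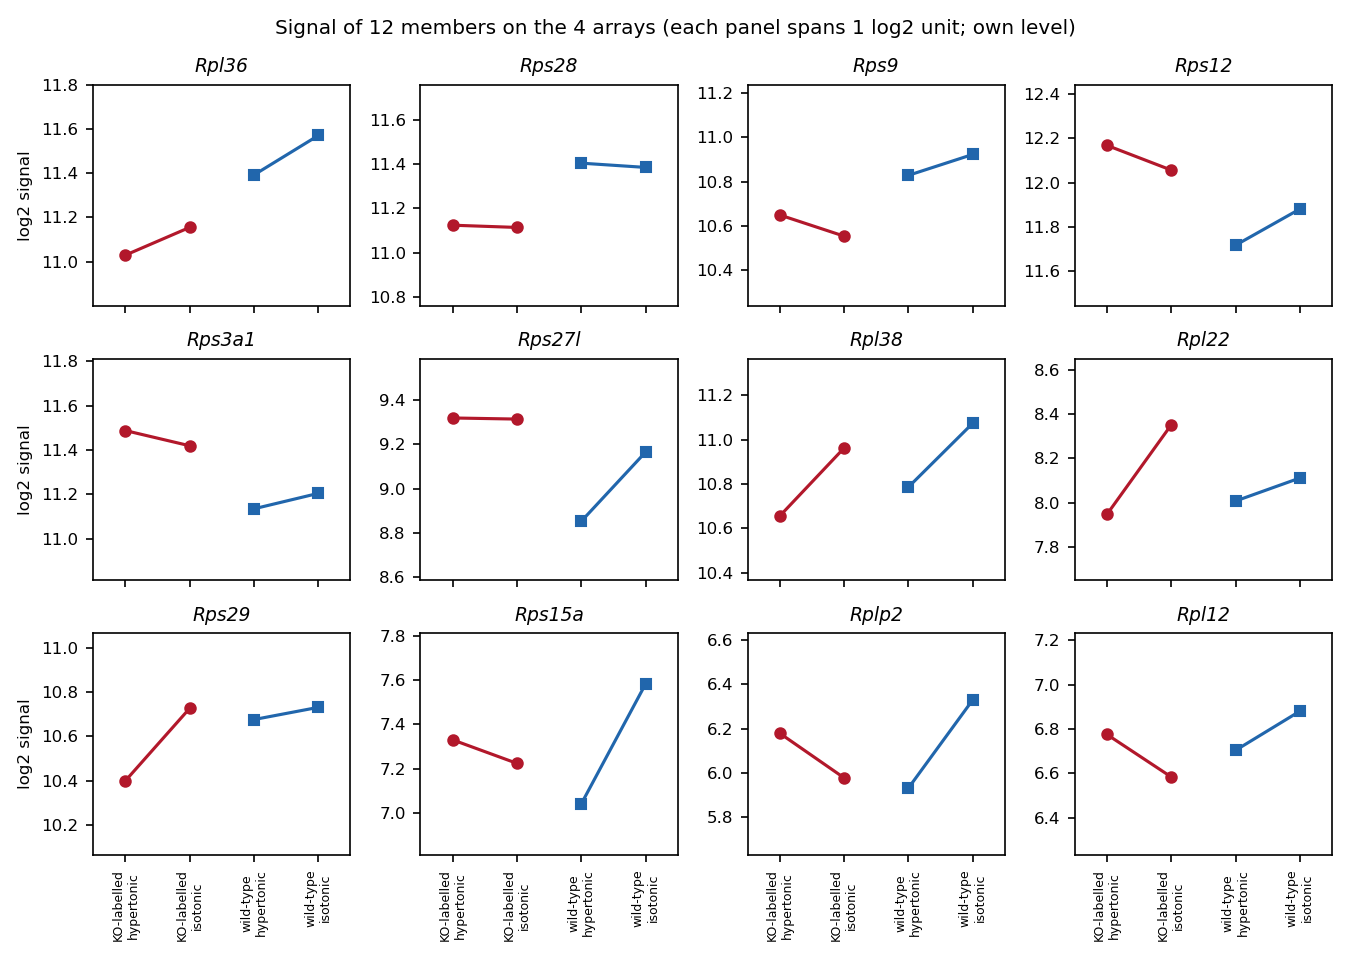
Log2 signal of 12 members on the 4 arrays, knockout-labelled (circles) and wild-type (squares), hypertonic left of isotonic within each genotype. Each panel spans 1 log2 unit around the member's own level, and levels are not comparable between panels because the probes differ.

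Both knockout-labelled arrays read below both wild-type arrays for 12 members (21.4%, against 21.5% of all genes and 17.6% of the bright non-members). They read above for another 12 (21.4%, against 24.4% of all genes and 30.2% of the bright non-members). In the deposited values these shares were near those of all genes. These counts moved with the scaling: with quantile normalization 17 members (30.4%) were below, against 22.5% of all genes, and 9 (16.1%) above, against 24.4%. With cyclic loess 17 were below, against 24.0% of all genes, and 8 above (14.3%), against 22.8%. The gap between the nearest arrays was at least 0.1 for 7 of these 24 members and under 0.02 for 8. The 7 were Rps28, Rpl36 and Rps9 on the low side and Rps3a1, Rpl29, Rps12 and Rps27l on the high side. Such gaps were not counted over all genes, so whether 7 is many is not known. The genotype differences in hypertonic and isotonic medium share no array. Across the 56 members their Pearson's r was 0.33 and Spearman's rho 0.35, with 34 members of the same sign. All genes gave r = 0.50 and bright non-members 0.51. The X-linked members Rpl10, Rps4x and Rpl36a differed by 0.09, -0.11 and -0.14 between genotypes in hypertonic medium. In isotonic medium they differed by 0.05, 0.03 and -0.00. Xist, the RNA that coats the silenced X chromosome, read 3.16 and 3.75 on the knockout-labelled hypertonic and isotonic arrays. On the wild-type hypertonic and isotonic arrays Xist read 9.31 and 8.99. The 2 kinds of cells thus also differ in Xist. Genotype differences of the members cannot be told apart from this difference between the cultures.

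**Figure D4:**
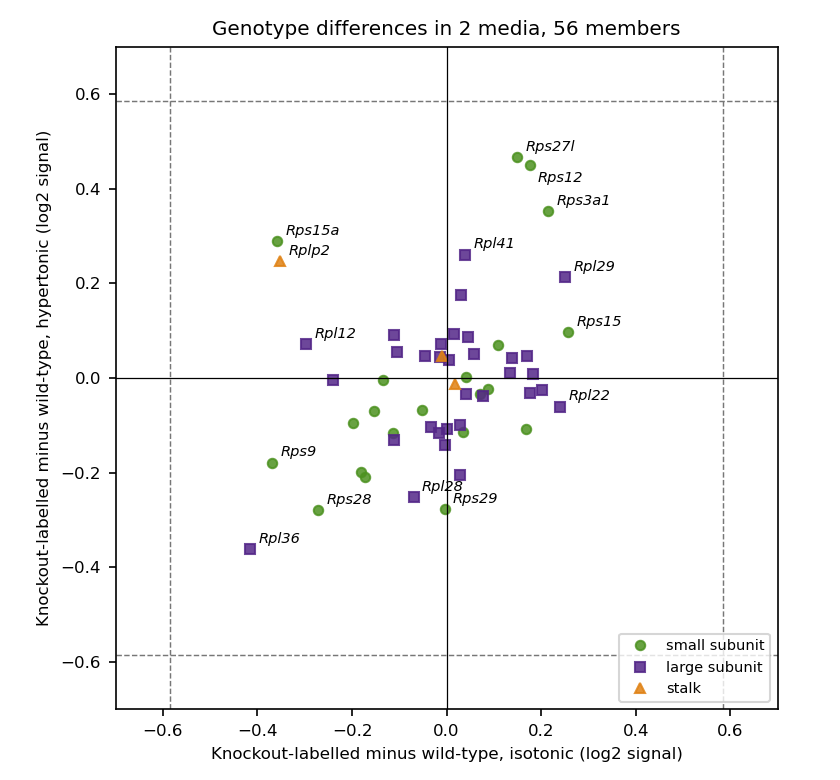
Knockout-labelled minus wild-type log2 signal of the 56 measured members in hypertonic medium (vertical) against isotonic medium (horizontal), by subunit, with dashed lines at 1.5-fold. Rpl36, Rps28 and Rps9 lie at the lower left, Rps12, Rps27l and Rps3a1 at the upper right, and Rps15a and Rplp2 change side with the medium.

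The difference of the responses, knockout-labelled minus wild-type, uses all 4 arrays and so shares arrays with every comparison above. It had a median of -0.02 over members and -0.06 over all genes. Past 1.2-fold were 8 members, 5 positive and 3 negative (14.3% of members, against 55.5% of all genes and 34.0% of the bright non-members). Past 1.5-fold were 2 members, Rps15a and Rplp2, both positive, where 7.76% of all genes were at least 1.5-fold positive and 15.4% at least 1.5-fold negative. Neither was left with the dim limit at the 75th percentile. With the knockout-labelled arrays in reverse order neither passed (0.44 for Rps15a and 0.20 for Rplp2). That order exchanges the media of these 2 arrays, so it cannot decide whether the calls hold. Rps15a read 7.33 and 7.22 on the knockout-labelled hypertonic and isotonic arrays, and 7.04 and 7.58 on the wild-type hypertonic and isotonic arrays. Rplp2 read 6.18 and 5.98 on the knockout-labelled hypertonic and isotonic arrays, and 5.93 and 6.33 on the wild-type hypertonic and isotonic arrays. In both genes the 2 extreme arrays were those of wild-type cells, with the knockout-labelled arrays between them. Rpl12, which sits at the base of the stalk, was likewise higher in hypertonic knockout-labelled and lower in hypertonic wild-type cells, a difference of 0.37, with 6.78 and 6.58 on the knockout-labelled hypertonic and isotonic arrays, and 6.70 and 6.88 on the wild-type hypertonic and isotonic arrays. These were 3 of the 5 measured members with the lowest mean signal, and each had 1 probe set. The other stalk proteins were bright and flat: Rplp0, the stalk scaffold, differed by 0.02 in knockout-labelled and 0.05 in wild-type cells, and Rplp1, the partner of Rplp2, by -0.08 and -0.14.

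Ribosomal proteins whose names fall outside the symbol pattern showed differences of similar size. Rpsa, the laminin-receptor protein of the small subunit, differed by -0.11 in knockout-labelled and -0.08 in wild-type cells, and Fau, which encodes a small-subunit protein fused to a ubiquitin-like domain, by -0.05 and -0.08. Probe sets that carry several symbols, at least 1 of them of the pattern, were read separately. Their medians over 237 probe sets were -0.13 in the knockout-labelled response, -0.06 in the wild-type response, 0.05 for genotype in hypertonic and 0.12 in isotonic medium. Of the 45 measured members with a promoter window, the 20 with a run of at least 8 pyrimidines had median responses of -0.06 in knockout-labelled and -0.09 in wild-type cells, and the 25 with shorter runs -0.02 and -0.08.

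Assembly factors had a lower median than the ribosomal proteins in the wild-type response, and not in the knockout-labelled one. Their list mixes chaperones of single ribosomal proteins with factors that mature or export the subunits. Their probe sets were dimmer than those of most members, and the part of brightness in this contrast was not tested. In wild-type cells 19 of 20 measured assembly factors were below 0, with a median of -0.36, and 4 (20.0%, against 3.3% of all genes) were at least 1.5-fold lower and none higher. Pno1, a late factor of the small subunit, read 8.01 in hypertonic and 8.79 in isotonic wild-type cells. Tsr1 and Ltv1, also of the late small subunit, differed by -0.78 and -0.72, and Grwd1, the chaperone of Rpl3, by -0.72. In knockout-labelled cells the median was 0.02, with 9 of 20 below 0 (45.0%, against 60.1% of all genes). Tsr2, the chaperone of Rps26, was 1 of 20 at least 1.5-fold lower (-0.84), or 5.0% against 12.0% of all genes, and none was higher. The genotype difference of the list had a median of 0.26 in hypertonic and -0.05 in isotonic medium.

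For the 5S particle, 1 measured protein can be set beside 3 assembly factors, which are not parts of the particle. Rpl5, which with Rpl11 carries the 5S RNA into the large subunit and can bind MDM2, differed by -0.00 in knockout-labelled and -0.04 in wild-type cells. Its assembly factors read lower in hypertonic wild-type cells, Heatr3 by -0.75, Rpf2 by -0.66 and Rrs1 by -0.55. In knockout-labelled cells Heatr3, Rpf2 and Rrs1 differed by -0.22, -0.45 and -0.02.

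Initiation factors were lower in wild-type cells by a median of -0.21, with 22 of 23 below 0 (95.7%, against 53.9% of all genes). Eif6 is counted both here and among the assembly factors. At least 1.5-fold lower were 2 initiation factors (8.70%, against 3.3% of all genes). Those 2 were Eif2b3 (-0.71), a subunit of the exchange factor of eIF2, and Eif5 (-0.59), its GTPase activator. In knockout-labelled cells the median was -0.10, near the -0.09 of all genes, with 14 of 23 below 0 (60.9%, against 60.1% of all genes). Only Eif2b3 (-1.08) of the 23 was at least 1.5-fold lower there, or 4.35% against 12.0% of all genes. Other mRNAs known to carry a TOP element had medians of -0.04 in knockout-labelled and -0.02 in wild-type cells over 20 genes. Elongation factor Eef1a1 differed by 0.09 and -0.04 and Eef2 by 0.20 and 0.02, while Pfdn5, a prefoldin subunit in that list, was the lowest in knockout-labelled cells (-0.75, against 0.12 in wild-type cells).

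Mitochondrial ribosomal proteins, which serve the separate ribosome inside mitochondria, were lower in knockout-labelled cells by a median of -0.22 over 77 genes, with 61 below 0 (79.2%, against 60.1% of all genes). Of them 11 were at least 1.5-fold lower (14.3%, near the 12.0% of all genes) and none higher. The all-gene median of this response was -0.09 and moved to 0.01 with quantile normalization. Mrpl23 (-1.32) and Mrps17 (-1.04) were the lowest. In wild-type cells their median was -0.08, with 1 at least 1.5-fold higher, Mrps6 (1.09), and 1 lower. Of 8 S6 kinase genes 4 were measured, and none passed 1.5-fold in either response. Of 15 measured regulators of ribosomal protein genes and mRNAs, 2 were at least 1.5-fold higher in knockout-labelled cells, Mdm2 and Rragc (13.3%, against 4.28% of all genes). Myc alone of the 15 passed 1.5-fold downward in wild-type cells (6.67%, against 3.3% of all genes). Larp1, the protein that holds TOP mRNAs, read 9.17 and 9.09 on the knockout-labelled hypertonic and isotonic arrays, and 8.62 and 9.05 on the wild-type hypertonic and isotonic arrays. Myc, a transcription factor that raises ribosomal protein genes, read 7.84 and 7.44 on the knockout-labelled arrays, hypertonic first, and 7.53 and 8.22 on the wild-type arrays. Its response was thus 0.41 in knockout-labelled and -0.69 in wild-type cells. Rragc, a Rag GTPase that brings mTORC1 to the lysosome, differed between genotypes by 1.41 in hypertonic and 0.57 in isotonic medium.

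**Figure D5:**
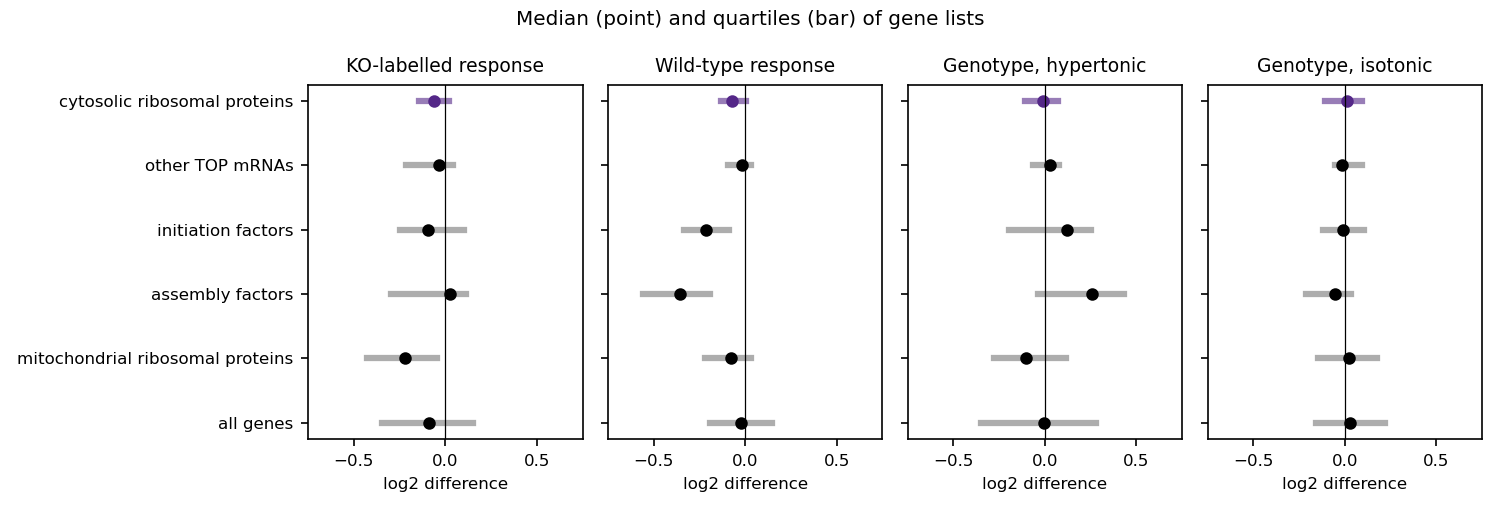
Median (points) and quartiles (bars) of log2 differences in the measured genes of 6 lists, for the knockout-labelled and wild-type responses (hypertonic minus isotonic) and the genotype difference (knockout-labelled minus wild-type) in each medium. The cytosolic ribosomal proteins lie within 0.1 of 0 by median in all 4 panels, while assembly factors have a median of -0.36 in the wild-type response.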

How the data were processed

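RNA of 4 pools of mouse embryonic fibroblasts, 1 pool of 4 samples per group, was hybridised to Affymetrix Mouse Gene 1.0 ST arrays after amplification from a poly(T) primer, per the labels' protocols. The authors deposited a table with 1 value for each probe set on each array, and its range (1.57 to 13.94) was read as log2 signal. MAS5 is named, without a version, per the submitters' processing notes. How background and array scale were corrected was not stated. Values were used as deposited. Of 35557 probe sets, 21789 carried 1 gene symbol and covered 19938 genes. The 1621 with several symbols and 12147 with none were not used to name a gene, and 237 with several symbols were read as a group. Genes entered a comparison when they exceeded the dim limit on at least 1 of its arrays. The build of the table is not stated.

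Differences were taken between arrays, counted at 1.5-fold (log2 0.585), with 2-fold as an alternative and 1.2-fold (log2 0.263) added later. The members, the gene lists and the rule for named genes (the 6 highest and 6 lowest members of each comparison, members past 1.5-fold, the paralogue, stalk, 5S and left-out lists, and the ends of other lists) were chosen with earlier results of these data known. Rps6, Rpl27, Rps13, Ltv1, Grwd1, Eef1a1 and the X-linked members were named after their values were seen. Alternatives were quantile and cyclic loess normalization (R 4.3.3, limma 3.58.1), centred differences, other dim limits and averaging each gene's probe sets. Others were no paralogues and the knockout-labelled arrays in reverse order. Reverse order exchanges the media of the 2 knockout-labelled arrays and turns the sign of their response by construction. It does not check the genotype label, which Nfat5 also left unchecked. Python, pandas and numpy did the rest. The counting step was tested on simulated data. The number of arrays limits the precision.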

Additional observations from a re-analysis of the deposited data

Results flagged for a closer look

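Rps15a was singled out because its response ran in opposite directions in the 2 kinds of cells, 0.11 in knockout-labelled and -0.54 in wild-type cells, a difference of responses of 0.65. Rplp2 was singled out for the same reason, with 0.20 in knockout-labelled and -0.40 in wild-type cells, a difference of 0.60. With 1 array per group neither difference was tested. With the dim limit at the 75th percentile neither gene was counted. With the media of the knockout-labelled arrays exchanged (reverse order) the values were 0.44 for Rps15a and 0.20 for Rplp2. Neither passed 1.5-fold there, but such an exchange cannot decide whether the calls hold. Each gene has a single probe set of its own, near 7.3 and 6.1, and the dim limit lay between 5.38 and 5.44. The part of low signal in these differences was not tested.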

How the results depend on the processing

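Of 50 medians recomputed under the alternatives, 40 stayed within the SD between probe sets of a member. That SD is wider than some of the medians, so a median that stayed could still change sign. For genotype in isotonic medium the members' median was -0.0446 with quantile normalization and -0.0441 with cyclic loess, against 0.0105. For the difference of responses it was 0.0221 with quantile normalization, 0.019 with cyclic loess and 0.0388 with centred differences, against -0.0188. For the knockout-labelled response the members' median was -0.0027 with quantile normalization, 0.0124 with cyclic loess, 0.0272 with centred differences and -0.126 over probe sets with several symbols. With the knockout-labelled arrays in reverse order the medians were 0.0602 for that response, 0.0657 and -0.0847 for genotype in hypertonic and isotonic medium, and 0.1245 for the difference of responses. Probe sets with several symbols gave 0.0452 and 0.1158 for genotype in hypertonic and isotonic medium. Of 132 counts, 113 stayed within 1.5 times. At 1.2-fold, added after seeing the data, 5 members were lower in each response, 4 higher and 3 lower by genotype in hypertonic medium, 6 lower in isotonic medium, and 5 positive and 3 negative in the difference of responses. The count of 2 positive members in that difference became 0 with the dim limit at the 75th percentile, 0 at 2-fold, 1 in reverse order (Rpl38) and 1 over probe sets with several symbols. Those probe sets also held 1 lower in the wild-type response and 1 lower by genotype in isotonic medium, where all one-gene probe sets of the members also gave 1. Members with both hypertonic arrays below both isotonic arrays were 12 (21.4%) with either normalization, against 20 (35.7%). The share of all genes fell too, to 13.8% with quantile normalization and 14.6% with cyclic loess, against 19.8%. Members above were 7 (12.5%) with either, where all genes gave 14.9% and 14.3%. They were 0 when each gene's probe sets were averaged, where all genes gave 10.2%, against 3 in the deposited values. The cause was not tested. No paired analysis was possible because each group has 1 array, so no replicate could be left out.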
